A study of Mus musculus with 5 samples.

Results

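In control mouse embryonic fibroblasts (MEFs), 821 broad RING1B peaks were listed, and 297 of them (36.2%) shared at least 1 base with a RING1B peak of MEFs that carried an inhibitor of PRC2, either EZHIP or the mutant histone H3.3 K27M. These 297 control peaks, called kept below, were chosen from the peak lists by that overlap alone. A peak of both lists overlapped 152 of them (18.5% of the control peaks). Only EZHIP peaks overlapped another 70 (8.53%), and only H3.3 K27M peaks another 75 (9.14%). The other 524 control peaks had no partner. The lists of the 3 libraries held 1418 peaks in all.

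RING1B was profiled by immunoprecipitation and sequencing (ChIP-Seq) of crosslinked chromatin cut with micrococcal nuclease, in 5 samples with 1 library per group. All groups came from MEFs of an embryo with floxed alleles of EED, a core subunit of PRC2. The control was the parental line with these alleles intact. The EZHIP and H3.3 K27M groups were the same MEFs after lentiviral transduction with human EZHIP or with H3.3 K27M under the EF1a promoter and drug selection, as populations that overexpress the inhibitor. Libraries of H3.3 K27R cells and of an EED deletion line were not analysed here. Each list gives peak positions on mm9 and no read count or score, so the depth behind a peak is unknown. A peak missing from a list was not called in that library, and its signal there cannot be stated. There is no replicate library, and the intervals given are 95% Wilson intervals that cover counting error only.

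RING1B is the catalytic core of Polycomb repressive complex 1 (PRC1), which ubiquitylates histone H2A and compacts chromatin at silent developmental genes. PRC2 methylates histone H3 at lysine 27 (H3K27me3), and canonical PRC1 binds this mark through its CBX subunits, whereas variant PRC1 can reach unmethylated CpG islands without it. PRC2 is inhibited by EZHIP, a protein of posterior fossa ependymomas, and by the K27M form of histone H3 that occurs in midline gliomas. The comparison asks which RING1B peaks, and which bases within them, were still called when PRC2 was inhibited.

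The sequences of a few kept peaks show what the bases that stayed inside a peak and those that dropped out look like. For the widest peak outside the HOX clusters in each of the 3 kept sets with a protein-coding gene start in its remaining bases, the 200 bases richest in CpG among the remaining bases outside untranslated regions are printed with 200 bases from the middle of its longest dropped stretch. Each is read from the plus strand of mm9 with CpG in capitals. Since the richest window is set beside a middle one, the CpG contrast within a pair follows from how the windows were chosen and is no measure of the difference between remaining and dropped bases. The richest 200 dropped bases held 30 CpG in the first peak below, 1 more than its richest remaining ones, 16 in the Zswim5 peak and 19 in the Cdx2 peak. The peak at 2410017I17Rik and Gm8909 was overlapped in both lists, and 38.2% of its sequence words were repeated elsewhere in the genome. Its remaining window, chr17:36294900-36295099, held 29 CpG and lies within the transcribed unit of 2410017I17Rik, with 167 of its bases in an annotated exon of a noncoding transcript, and its dropped window, chr17:36287701-36287900, held 0 in an intron of the same unit. The Zswim5 peak was overlapped by EZHIP alone. Its remaining window, chr4:116549702-116549901, held 40 CpG in the promoter, just upstream of the gene start, and its dropped window, chr4:116556700-116556899, held 0 in an intron. The Cdx2 peak was overlapped by H3.3 K27M alone. Its remaining window, chr5:148118159-148118358, held 28 CpG in a coding exon of Cdx2, and its dropped window, chr5:148108701-148108900, held 0 and was intergenic.
2410017I17Rik remaining: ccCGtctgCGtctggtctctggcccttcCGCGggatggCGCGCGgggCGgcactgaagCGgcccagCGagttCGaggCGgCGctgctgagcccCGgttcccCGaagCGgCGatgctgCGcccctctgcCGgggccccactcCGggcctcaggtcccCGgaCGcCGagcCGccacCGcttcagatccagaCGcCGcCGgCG
2410017I17Rik dropped: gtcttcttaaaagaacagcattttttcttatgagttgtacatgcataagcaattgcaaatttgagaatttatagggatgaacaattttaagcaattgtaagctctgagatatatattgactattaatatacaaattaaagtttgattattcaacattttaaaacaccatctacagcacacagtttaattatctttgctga
Zswim5 remaining: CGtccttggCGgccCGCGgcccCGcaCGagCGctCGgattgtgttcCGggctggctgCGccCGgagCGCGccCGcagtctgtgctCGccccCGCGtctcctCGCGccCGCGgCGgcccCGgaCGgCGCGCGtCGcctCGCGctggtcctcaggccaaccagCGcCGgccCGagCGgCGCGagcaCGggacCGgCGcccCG
Zswim5 dropped: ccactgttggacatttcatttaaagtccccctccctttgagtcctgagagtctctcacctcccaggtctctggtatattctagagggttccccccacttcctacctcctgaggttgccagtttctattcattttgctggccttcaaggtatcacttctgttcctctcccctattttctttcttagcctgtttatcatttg
Cdx2 remaining: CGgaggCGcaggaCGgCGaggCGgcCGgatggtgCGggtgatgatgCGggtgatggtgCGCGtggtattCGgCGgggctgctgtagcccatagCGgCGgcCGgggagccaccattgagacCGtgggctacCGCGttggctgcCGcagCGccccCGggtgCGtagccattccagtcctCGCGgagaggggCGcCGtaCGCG
Cdx2 dropped: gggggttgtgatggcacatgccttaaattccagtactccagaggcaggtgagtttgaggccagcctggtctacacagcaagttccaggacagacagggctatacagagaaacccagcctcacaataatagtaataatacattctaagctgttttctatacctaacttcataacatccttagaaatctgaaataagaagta

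A pair of PAX genes, chosen after their values were seen, shows bases that were covered by H3.3 K27M but not by EZHIP. PAX2 and PAX6 proteins are paired-box transcription factors of the kidney and the eye. Each window is the richest in CpG of its kind of bases outside untranslated regions, and EZHIP peaks offered far fewer bases to choose from, 798 at Pax2 and 9399 at Pax6, against 20599 and 30199 in H3.3 K27M peaks. The counts are therefore no measure of the difference between the kinds. Per 100 bases, CpG numbered 3.29 in H3.3 K27M-only and 1.75 in shared bases at Pax2, and 3.18 and 2.32 at Pax6. At Pax2 an intergenic window upstream of the gene, chr19:44821156-44821355, lay in the H3.3 K27M peak and outside the EZHIP peaks and held 31 CpG. A window inside an EZHIP peak in the same domain, chr19:44824129-44824328, was also intergenic and held 5 CpG. At Pax6 the window outside the EZHIP peaks, chr2:105509738-105509937, held 19 CpG, and the window inside, chr2:105521531-105521730, held 20. Both Pax6 windows were intronic.
Pax2 in H3.3 K27M, not in EZHIP: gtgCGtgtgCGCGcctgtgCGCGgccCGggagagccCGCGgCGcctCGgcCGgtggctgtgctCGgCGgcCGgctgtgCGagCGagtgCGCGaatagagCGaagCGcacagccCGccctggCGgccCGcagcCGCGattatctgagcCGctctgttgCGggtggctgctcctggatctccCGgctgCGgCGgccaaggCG
Pax2 in EZHIP: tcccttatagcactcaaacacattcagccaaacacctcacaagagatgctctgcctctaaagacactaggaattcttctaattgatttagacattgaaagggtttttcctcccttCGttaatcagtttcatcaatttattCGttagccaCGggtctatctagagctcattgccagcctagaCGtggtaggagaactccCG
Pax6 in H3.3 K27M, not in EZHIP: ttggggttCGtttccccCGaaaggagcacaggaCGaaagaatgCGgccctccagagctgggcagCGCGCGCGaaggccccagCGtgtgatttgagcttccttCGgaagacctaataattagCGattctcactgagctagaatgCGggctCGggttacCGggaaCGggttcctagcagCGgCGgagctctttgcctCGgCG
Pax6 in EZHIP: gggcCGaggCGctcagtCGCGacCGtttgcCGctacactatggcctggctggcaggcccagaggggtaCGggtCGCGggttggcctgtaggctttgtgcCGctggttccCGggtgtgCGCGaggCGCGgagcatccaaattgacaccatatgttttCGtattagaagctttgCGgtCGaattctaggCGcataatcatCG

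Overlap by 1 base set a low bar, and some kept peaks sat near it, whereas few of the others came close. With peak edges on a grid of 200 bases, the smallest overlap was 399 bases, which 38 kept peaks had. In 66 the overlap was under 1000 bases. The narrow peaks just inside the limit included those at Ccdc85c (1199 bases wide), Hey2 and Fzd3 (1599 bases each), all overlapped by EZHIP alone for 399 bases. Just outside it, the control peaks at Ppm1e and Dgcr14 and a peak near Alox8 abutted a peak of another list without sharing a base. Only 7 of the 524 peaks without a partner lay within 10000 bases of a peak of another list, and their median gap was 1625700 bases. Peaks overlapped by a list alone also lay mostly far from the nearest called peak of the other list. Distance between calls does not show whether signal there fell just short of a call. The median distance from the EZHIP-alone peaks to the nearest H3.3 K27M peak was 1893900 bases, with 1 of 70 within 10000 bases, and from the H3.3 K27M-alone peaks to the nearest EZHIP peak it was 2086000 bases, with 0 of 75. Had at least 50% of the control peak been required, 20.3% of control peaks would have counted as kept.

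Most kept peaks stayed as a part of the control domain. EZHIP peaks covered a median of 33.6% of the bases of the 222 control peaks they overlapped (quartiles 15.4% and 63.0%), and H3.3 K27M peaks covered a median of 58.5% of the 227 they overlapped (quartiles 34.8% and 76.9%). Under 10% of the bases was left in 37 peaks with EZHIP and 15 with H3.3 K27M, and the whole control peak was covered in 5 and 7. The EZHIP list holds many narrow peaks, and its median became 50.9% when peaks under 1000 bases were left out of both lists. The remainder was usually 1 piece, with more than 1 in 7 peaks for EZHIP and 4 for H3.3 K27M. It reached beyond the control peak in 18 and 19. The plot of both shares for every kept peak shows this order peak by peak.

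**Figure D1:**
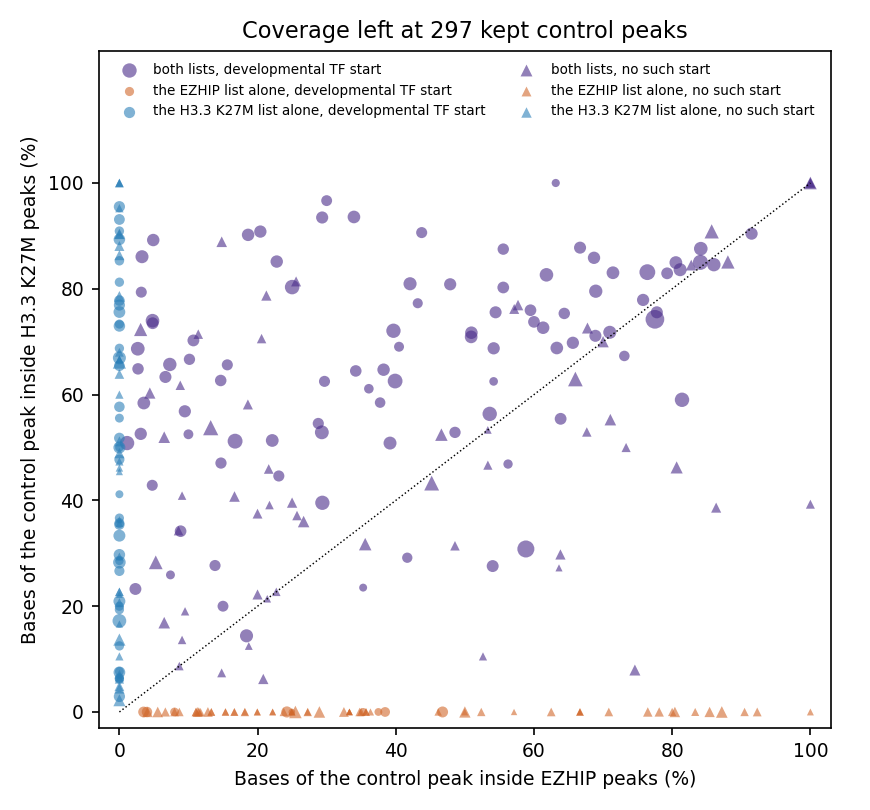
Share of the bases of each of the 297 kept control peaks inside EZHIP peaks (horizontal axis, %) and inside H3.3 K27M peaks (vertical axis, %), coloured by the list that overlaps the peak, with circles for peaks that hold a developmental transcription factor (TF) start, triangles for the others, larger marks for wider control peaks and a dotted line of equal shares. Of the 152 purple marks, overlapped in both lists, 112 lie above the line and 32 below it, and the orange and blue marks lie on the axes because the other list has no peak there.

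Within the 152 peaks overlapped in both lists the order was mostly the same. H3.3 K27M covered more bases in 112 peaks, EZHIP in 32, and they were equal in 8. The EZHIP-covered bases lay wholly inside the H3.3 K27M-covered bases in 97 peaks, whereas 5 peaks had no base covered in both. Summed over these peaks, 91.5% of the EZHIP-covered bases were also covered by H3.3 K27M. EZHIP covered 44.0% and H3.3 K27M 63.7% of the control bases. The H3.3 K27M share was higher still for what the overlap did not use, namely 71.4% of the CpG, 75.8% of the bases in CpG-island-like sequence (500-base windows, G+C content of 55% or more, CpG ratio, observed over expected, of 0.65 or more) and 74.3% of the protein-coding gene starts (130 of 175). For EZHIP these shares were 47.5%, 49.8% and 50.9% (89 of 175).

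The EZHIP peaks that overlapped a control peak alone had a median width of 799 bases, with 40 of 70 under 1000 bases, against 3899 bases for the EZHIP peaks at control peaks overlapped in both lists. For H3.3 K27M these medians were 2999 and 9199 bases.

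The extremes among peaks overlapped in both lists and at least 5000 bases wide were developmental TF genes at the low end for EZHIP and repeats at the high end. Foxe1, a forkhead gene of the thyroid, had a control peak of 17199 bases (chr4:46347401-46364599), of which EZHIP covered 399 (2.32%) and H3.3 K27M 3999 (23.3%). Pax2 was covered to 2.66% by EZHIP and 68.7% by H3.3 K27M. At the low end for H3.3 K27M were Ccnd2, which encodes cyclin D2, with 6.24% by H3.3 K27M and 20.8% by EZHIP, a peak on chromosome 14 with 7.39% and 14.8%, and B4galnt2, a glycosyltransferase gene, with 7.93% and 74.6%. Tcf21, a basic helix-loop-helix (bHLH) gene of mesenchyme, was covered to 96.7% by H3.3 K27M and 30.0% by EZHIP, the highest H3.3 K27M share below complete cover.

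The 4 such peaks that EZHIP covered completely were made mostly of repeated sequence, measured as the percentage of words of 32 bases that occur more than once in mm9. At Gm10722 and Gm11168 (chr9:3000201-3010799) 93.9% of the words were repeated, at Gm10715 and its neighbours (chr9:3016201-3038199) 91.4%, at Gm10800 (chr2:98502401-98507799) 70.4%, and at a peak without a gene start (chr17:13744001-13749599) 73.2%. H3.3 K27M covered the first 3 completely as well and the last to 39.3%. Bowtie at its defaults places reads that match several sites, so the position of signal in such peaks is uncertain. More than 50% of the words were repeated in 11 of the 297 kept peaks, 8 of them overlapped in both lists, and in 16 of the 524 others. Without such peaks, 35.9% of control peaks were kept and the median EZHIP cover was 33.3%.

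The start of a protein-coding gene, meaning the 5′ end of a gene in the GENCODE vM1 annotation, lay in a larger share of kept peaks than of others over all widths, a difference that was small and of either sign within classes of width. Such a start lay in 221 of 297 kept peaks (74.4%, interval 69.2% to 79.0%) and in 308 of 524 others (58.8%, 54.5% to 62.9%). Kept peaks were wider than the others. Below 2000 bases of width such a start lay in 8 of 17 kept peaks (47.1%) and 117 of 221 others (52.9%), and from 2000 to under 4000 bases in 23 of 41 (56.1%) and 113 of 185 (61.1%). From 4000 to under 10000 bases it lay in 65 of 98 kept peaks and 62 of 100 others, and at 10000 bases or more in 88.7% of 141 and 88.9% of 18. The intervals overlapped in each of these classes. With a start allowed within 5000 bases of the peak, the shares over all widths were 78.8% and 78.8%. Counted by genes, 631 of 22350 starts (2.82%) lay in a control peak, and 286 of these (45.3%) lay in a kept peak. A gene start in a kept peak was not always in the bases that stayed. Of the 286 starts, 111 (38.8%) lay inside an EZHIP peak and 156 (54.5%) inside an H3.3 K27M peak, 83 in both and 102 in neither. With a margin of 5000 bases around the peaks, 71.2% and 71.9% of the starts counted were near a peak of EZHIP and of H3.3 K27M, respectively.

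The kept gene starts were mostly those of developmental TFs. Lists of homeobox, PAX, bHLH, forkhead, SOX, T-box, GATA, zinc finger and other TF genes held 372 annotated genes. They were chosen with earlier results of these data known, so the comparison with other genes is a description and no independent test. The start lay in a control peak for 195 of them and in a kept peak for 165 (84.6%, 78.9% to 89.0%), against 118 of 433 starts of other protein-coding genes (27.3%, 23.3% to 31.6%). The 165 split into 117 in peaks overlapped in both lists, 9 with EZHIP alone and 39 with H3.3 K27M alone. The start itself was inside an EZHIP peak for 68 (41.2%) and inside an H3.3 K27M peak for 114 (69.1%). For the 118 other genes these numbers were 43 (36.4%) and 40 (33.9%). The plot of gene classes gives the counts for each list.

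**Figure D2:**
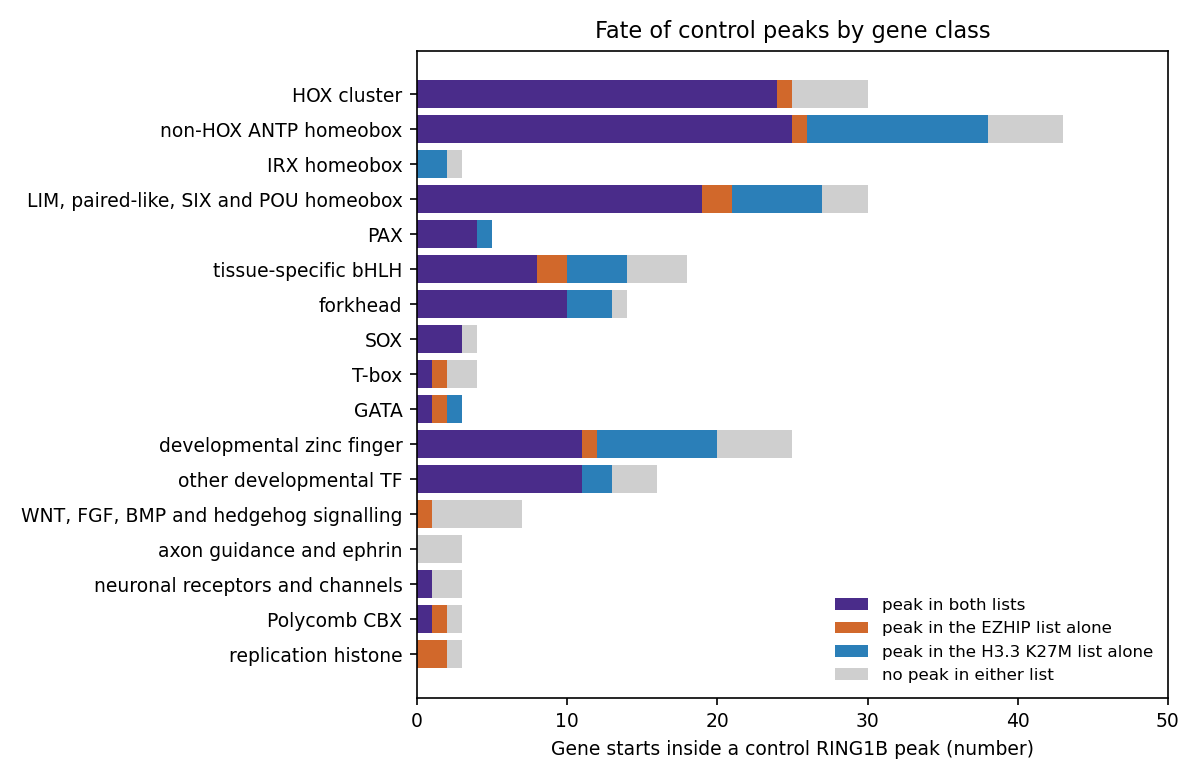
Number of genes of each class whose start lies in a control RING1B peak (horizontal axis), split by whether that peak is overlapped in both lists, by EZHIP alone, by H3.3 K27M alone or by neither. The homeobox, forkhead and zinc finger bars are mostly coloured, whereas 6 of the 7 signalling genes and all 3 axon guidance genes are grey.

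Median widths were 9399 bases for kept peaks and 2399 for the others, so TF and other peaks were also compared within classes of width. Among control peaks of 10000 bases or more, 106 of 111 with a developmental TF start were kept (95.5%, 89.9% to 98.1%), against 19 of 30 with another protein-coding start (63.3%, 45.5% to 78.1%) and 16 of 18 with none. From 4000 to under 10000 bases these numbers were 30 of 40 (75.0%, 59.8% to 85.8%), 35 of 87 (40.2%, 30.6% to 50.7%) and 33 of 71 (46.5%). The intervals of TF and other gene peaks did not overlap in either class. For peaks with no start the interval was 67.2% to 96.9% in the widest class, which overlaps that of TF peaks. In the class below it was 35.4% to 58.0%. They overlapped from 2000 to under 4000 bases, with 5 of 15 against 18 of 121, and below 2000 bases only 3 peaks held a TF start. Within the widest class the TF peaks were still wider, with a median of 17999 bases against 14499.

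**Figure D3:**
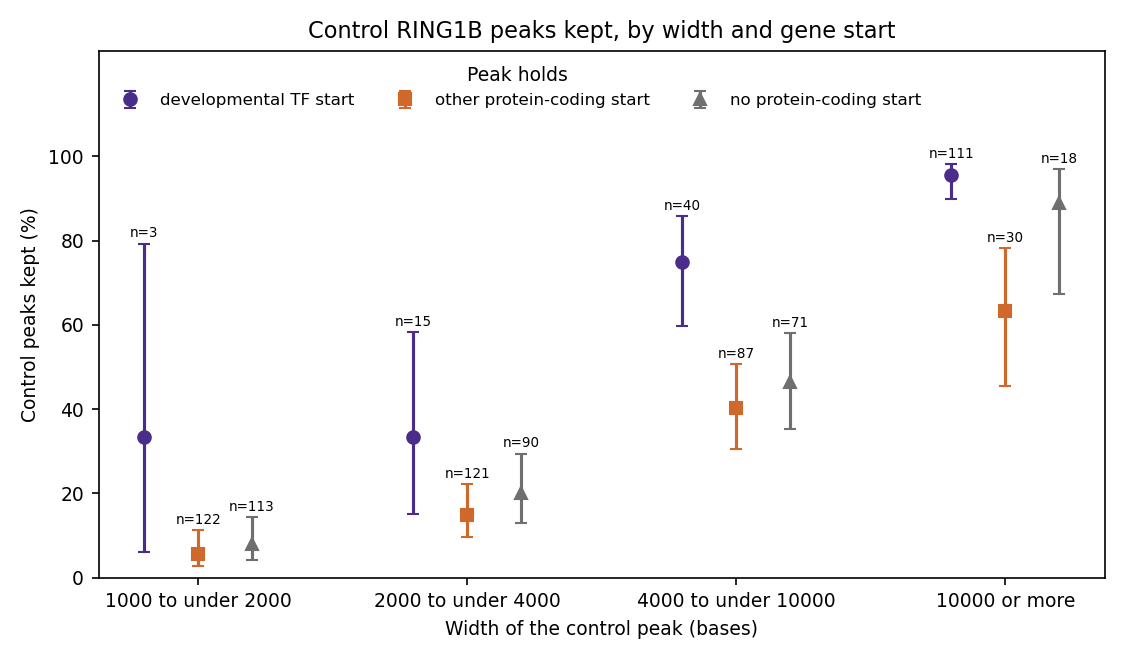
Control peaks kept (vertical axis, %) by width of the control peak in bases (horizontal axis), for peaks that hold a developmental TF start, another protein-coding start or none, with 95% Wilson intervals as bars and the number of peaks beside each point. The TF points lie above the other protein-coding points in all 4 width classes, and the intervals of these groups separate from 4000 bases upwards. In the widest class the interval of peaks with no start overlaps that of TF peaks.

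The lists differed in which genes they overlapped alone. Developmental TFs made up 9 of the 54 gene starts in EZHIP-alone peaks (16.7%, 9.02% to 28.7%) and 39 of the 57 in H3.3 K27M-alone peaks (68.4%, 55.5% to 79.0%). Among control peaks of 4000 to under 10000 bases, H3.3 K27M alone overlapped 19 of 40 with a TF start and 6 of 87 with another start, and EZHIP alone 3 of 40 and 12 of 87. Among those of 10000 bases or more, H3.3 K27M alone overlapped 19 of 111 and 0 of 30, and EZHIP alone 3 of 111 and 6 of 30.

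HOX genes set positional identity along the body axis. Of 39 genes, 30 had their start in a control peak and 25 in a kept peak, which were only 6 peaks, so these genes are not independent. The covered starts were those of paralogs from Hox8 to Hox13, at the 5′ side of the clusters. EZHIP peaks held 16, namely Hoxa9, Hoxa10, Hoxa11, Hoxa13, Hoxb8, Hoxb9, Hoxb13, Hoxc9 to Hoxc13 and Hoxd10 to Hoxd13, and H3.3 K27M peaks held 12 of these 16, without Hoxa9, Hoxa10, Hoxa11 and Hoxb8. Hoxa3, Hoxa5, Hoxa6, Hoxa7, Hoxb7, Hoxc5, Hoxc6, Hoxc8 and Hoxd9 had their start in a kept peak but outside both lists. Hoxb3, Hoxb4, Hoxb5, Hoxd3 and Hoxd8 lay in control peaks without a partner. In the HoxA peak (chr6:52152801-52224199) EZHIP covered 41999 and H3.3 K27M 21999 of 71399 bases.

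In the other homeobox genes of the Antennapedia (ANTP) class, which pattern brain, heart and gut, most starts lay in H3.3 K27M peaks. Of 43 starts in control peaks, 38 were kept, 25 in both lists, 12 by H3.3 K27M alone and 1, Meox2, by EZHIP alone. The start was inside an H3.3 K27M peak for 33 (86.8%, 72.7% to 94.2%) and inside an EZHIP peak for 11 (28.9%, 17.0% to 44.8%), and all 11 were also in H3.3 K27M. In HOX genes the corresponding shares were 48.0% and 64.0% of 25 starts, and all 12 starts in H3.3 K27M peaks were also in EZHIP peaks. These starts lie in only 6 control peaks, so no interval is given. At Nkx2-3, a gene of gut and spleen, EZHIP covered 61.8% and H3.3 K27M 82.6% of 28799 bases, and at Lbx1, of migrating muscle precursors, 68.9% and 79.5% of 26399. At Mnx1, a motor neuron gene, the shares were 42.1% and 81.0%, and at Barhl2, of the retina and forebrain, 4.79% and 74.0%. Vax2, of the ventral eye, was covered to 29.4% and 39.5% with its start in neither, and Evx2 lay in the HoxD peak with its start in both. The widest peaks overlapped by H3.3 K27M alone included Cdx2, a caudal gene of the intestine, with 16199 of 24199 bases, and En1, of the midbrain-hindbrain boundary, with 5999 of 21199. Dlx1, Dlx2, Dlx3, Dbx1 and Msx2 lay in control peaks without a partner.

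Of the 30 LIM, paired-like, sine oculis and POU homeobox starts, which include genes of neurons, eye and pituitary, 27 were kept, 19 of them in both lists. The start was in both lists for 12, in H3.3 K27M alone for 6 and in neither for 9. Uncx, a somite gene, was covered to 53.6% by EZHIP and 56.4% by H3.3 K27M, and Otp, of the hypothalamus, to 71.0% and 71.8%. Six3, of the forebrain, was covered to 3.27% and 86.1%, Pou3f2, of neuronal precursors, to 80.5% and 85.0%, and Isl1, of motor neurons, to 71.4% and 83.0%. All 5 PAX starts in control peaks were kept, and none lay in an EZHIP peak. Pax2, Pax5, Pax6 and Pax7 had their start in an H3.3 K27M peak, where it covered 68.7%, 90.8%, 80.3% and 80.2% of the control peak, against 2.66%, 20.4%, 25.0% and 55.6% for EZHIP. Pax3, of neural crest and muscle, was overlapped by H3.3 K27M alone, for 5199 of 30199 bases away from its start. Irx3 and Irx5 were overlapped by H3.3 K27M alone, with 799 and 399 bases left.

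Among 18 bHLH starts of tissue-specific genes, 14 were kept, 8 in both lists. Sim1, of the hypothalamus, was covered to 86.0% by EZHIP and 84.6% by H3.3 K27M, and the proneural gene Neurog2 to 91.5% and 90.4%. Olig3 was covered to 29.3% and 93.5%, and Neurod2 to 2.70% and 64.9%. Hey1 and Hey2, Notch target genes, were overlapped by EZHIP alone, and Neurog1, Atoh1 and Bhlhe22 by H3.3 K27M alone. Of 14 forkhead starts, 13 were kept. Foxa2, an endoderm gene, was covered to 7.30% and 65.7%, its paralog Foxa1 to 50.9% and 71.7%, and the ovarian gene Foxl2 to 39.2% and 50.8%. Foxf1a and Foxf2, genes of lung and gut mesenchyme, and Foxd2 were overlapped by H3.3 K27M alone.

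Of 25 developmental zinc finger starts, 20 were kept. Zic1 and Zic4, of the cerebellum, share a control peak of 40599 bases (chr9:91244801-91285399) with both starts in both lists, of which EZHIP covered 16199 and H3.3 K27M 25398 bases. Zic2 and Zic5 share a peak covered to 84.1% and 87.6%, and Sp8, of the limb bud, lies in one covered to 81.1% and 83.6%. Wt1, of the kidney, was overlapped by H3.3 K27M alone (89.3%) and Osr2, of palate and limb, by EZHIP alone (46.8%). Of 16 other TF starts, 13 were kept, among them Nr2e1, a neural stem cell gene (39.7% and 72.1%), Tcfap2a, of the neural crest (29.3% and 52.9%), and Onecut1, of liver (3.54% and 58.4%). In the smaller lists, kept peaks held 3 of 4 SOX starts (Sox2, Sox14 and Sox21, not Sox9). They held 2 of 4 T-box starts (Tbx2 and Tbx20, not Tbx1 and Eomes) and 3 of 3 GATA starts. The start itself lay in a peak of either list for 1 of the 3 SOX, 1 of the 2 T-box and 0 of the 3 GATA genes. At Gata3 H3.3 K27M alone covered 1199 of 15999 bases, and at Gata6 EZHIP alone covered 399 of 11399. At Gata4, a heart and gut gene with a peak of 41799 bases, EZHIP covered 16.7% and H3.3 K27M 51.2%, with the start in neither.

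Gene lists outside the TFs had few starts in control peaks. Of 83 WNT, FGF, BMP and hedgehog pathway genes, 7 had a start in a control peak, and only Wif1, a secreted WNT inhibitor, was kept, by EZHIP alone with 90.5% of the peak and the start covered. Ihh, Wnt1, Wnt3a, Wnt9a, Nog and Ptch1 were not kept. None of 3 axon guidance starts and 1 of 3 neuronal starts, Slc32a1, was kept. Of the 5 CBX genes, which encode the PRC1 subunits that read H3K27me3, 3 had a start in a control peak, 1 of them in a peak without a partner. The Cbx8 peak was overlapped in both lists, with the start in neither, and the Cbx2 peak by EZHIP alone with its start covered. Of 30 fibroblast genes, 1 had its start in a control peak. It was Pdgfra, a receptor of mesenchymal cells, overlapped by EZHIP alone for 599 of 5399 bases with its start covered. Peak positions do not measure expression, so the cell label could not be checked further. No start of the 76 ribosomal protein genes, the 24 clustered protocadherins or the 7 cell-cycle inhibitors of the INK4 and CIP families lay in a control peak. Of 67 replication histone genes, 3 had their start in a control peak. Hist4h4 lay in a peak without a partner, and Hist3h2a and Hist3h2ba shared an EZHIP-alone peak covered to 80.4%.

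The widest EZHIP-alone peaks with a gene start outside the HOX clusters were at Dll1, which encodes a Notch ligand (21199 bases, 5399 covered), Igf2bp3 (15599, 13599 covered), Zswim5 (15199, 4399 covered) and Igf2bp1 (13999, 6999 covered). Igf2bp1 and Igf2bp3 encode oncofetal RNA-binding proteins. Other genes in EZHIP-alone peaks, named after their values were seen, were the cell-cycle kinase genes Cdk4 (5.55% of the peak) and Cdk6 (80.0%). In H3.3 K27M-alone peaks they were Npy, a neuropeptide gene (100%), Gad2, of GABA synthesis (63.9%), and Lin28b, which encodes an inhibitor of let-7 processing (90.3%). The maps of 8 kept peaks show where the calls lie relative to gene starts and CpG-rich sequence.

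**Figure D4:**
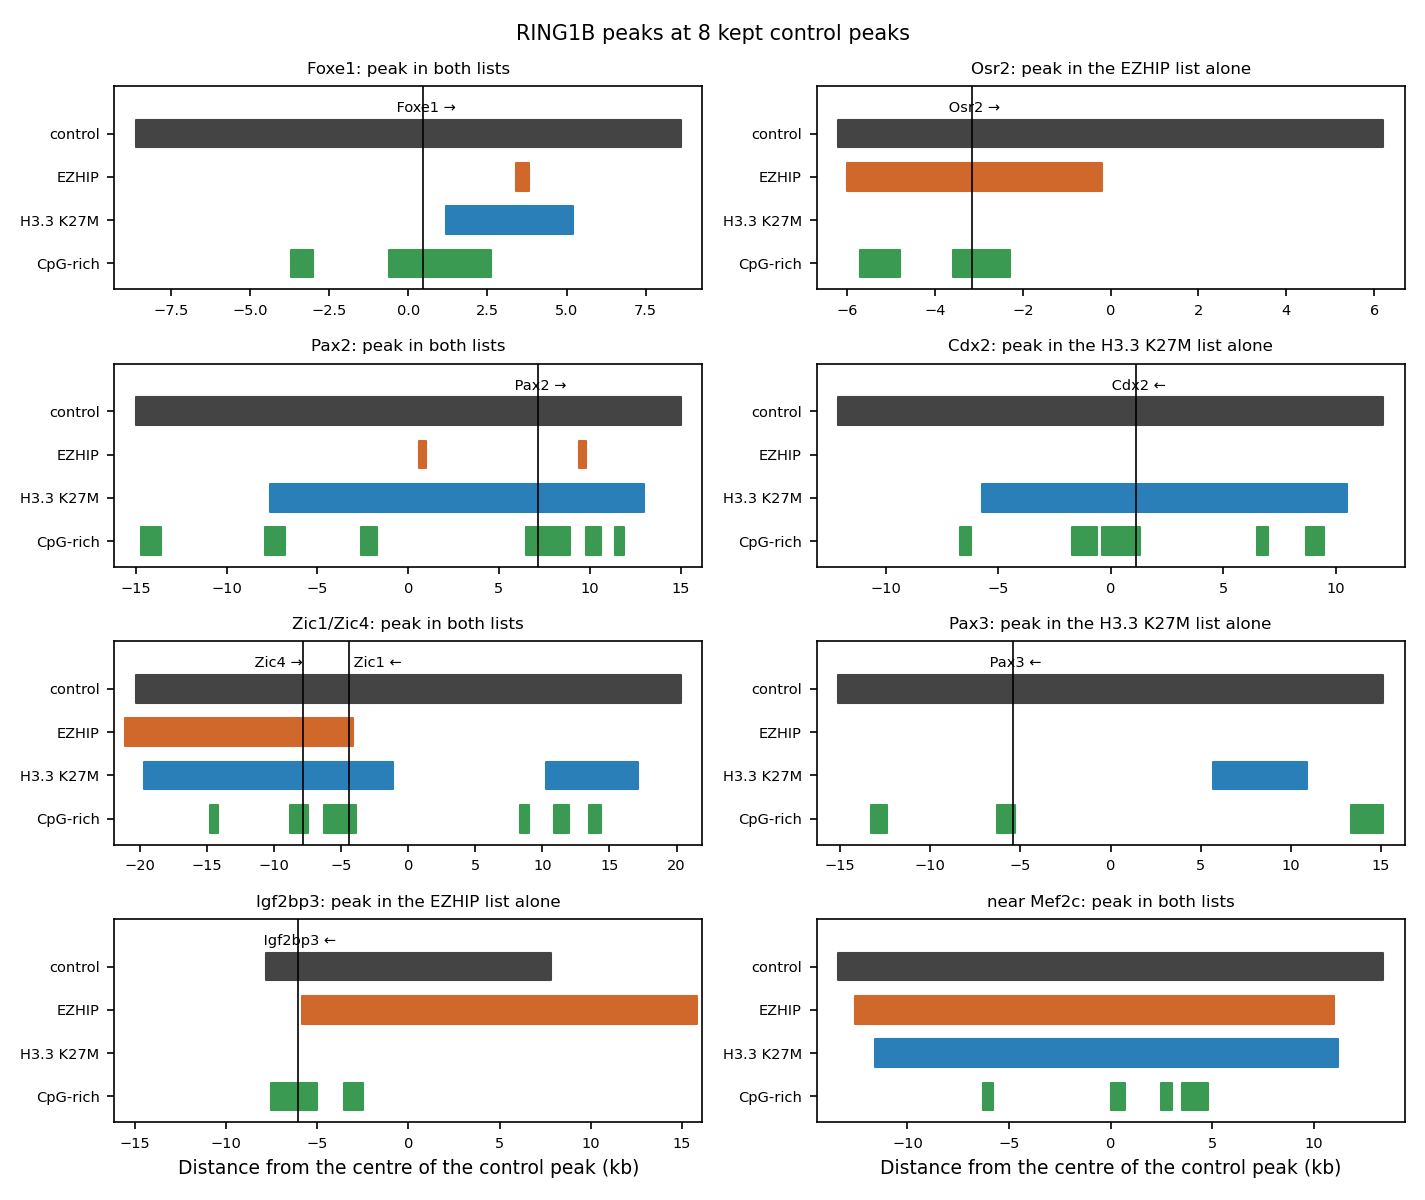
Maps of 8 kept control peaks, with distance from the centre of the control peak in kb on the horizontal axis and rows for the control, EZHIP and H3.3 K27M peaks and for CpG-island-like sequence within the control peak. Vertical lines mark gene starts with an arrow for the direction of transcription, and at Foxe1 and Pax2 the EZHIP bars are short beside the H3.3 K27M bars.

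Of the 297 kept peaks, 76 held no protein-coding gene start and 61 no start of any annotated gene. Their median distance to the nearest protein-coding start was 32832 bases. After a pair of repeat-rich peaks on chromosome 3, the widest lay 26799 bases long at chr13:83853201-83879999, nearest to Mef2c, and was covered to 88.1% by EZHIP and 85.1% by H3.3 K27M. A peak nearest to Nr2f1 was covered to 70.0% and 70.0%, while the Nr2f1 start itself lay in a control peak without a partner. A peak that ended 1056 bases from the Irx4 start was overlapped by H3.3 K27M alone (78.6%). These peaks were named after their values were seen.

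The quartiles of CpG content of kept and other peaks overlapped within each of the width classes given here. CpG is depleted in most of the genome, at 0.834 per 100 bases of the autosomes and the X chromosome, and all width classes of control peaks were above this. The median was 3.15 CpG per 100 bases over all kept peaks and 5.14 over the others, but narrow control peaks were richer in CpG than wide ones and the others were narrower. From 4000 to under 10000 bases the medians were 3.55 (quartiles 2.83 and 4.46, 98 kept peaks) and 3.52 (2.81 and 4.62, 100 others). At 10000 bases or more they were 2.85 (2.33 and 3.23, 141 kept peaks) and 3.06 (2.44 and 3.32, 18 others), and from 2000 to under 4000 bases 4.84 (3.24 and 6.03, 41 kept peaks) and 5.37 (3.47 and 6.79, 185 others). CpG-island-like sequence was present in 276 kept peaks (92.9%, 89.4% to 95.3%) and in 473 others (90.3%, 87.4% to 92.5%).

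Inside kept peaks, the bases left by H3.3 K27M were richer in CpG than those that dropped out, and the EZHIP bases less clearly so. The comparison was made within each control peak that had at least 400 bases on either side. Cover was higher towards the middle of the control peak than at its ends. In peaks overlapped in both lists H3.3 K27M covered the midpoint in 86.2% and an end base in 6.58%, and EZHIP in 62.5% and 7.89%. The midpoint was covered in 42.9% of EZHIP-alone and 64.0% of H3.3 K27M-alone peaks. CpG content was not compared at equal position, so the effect of position was not tested. With H3.3 K27M the remaining bases had more CpG per 100 bases in 155 of 202 peaks (76.7%, 70.4% to 82.0%), with medians of 3.48 against 1.96. With EZHIP they did so in 103 of 184 (56.0%, 48.8% to 63.0%), with medians of 3.14 against 2.58. EZHIP-alone peaks showed it in 20 of 45 (44.4%, 30.9% to 58.8%), with a median of 2.90 remaining and 3.89 dropped, and H3.3 K27M-alone peaks in 41 of 58 (70.7%, 58.0% to 80.8%). By the observed to expected CpG ratio, which accounts for base composition, the remaining bases were higher in 82.2% for H3.3 K27M and 68.5% for EZHIP. Peaks with a developmental TF start showed the difference in 106 of 128 (82.8%) for H3.3 K27M and 60 of 94 (63.8%) for EZHIP.

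**Figure D5:**
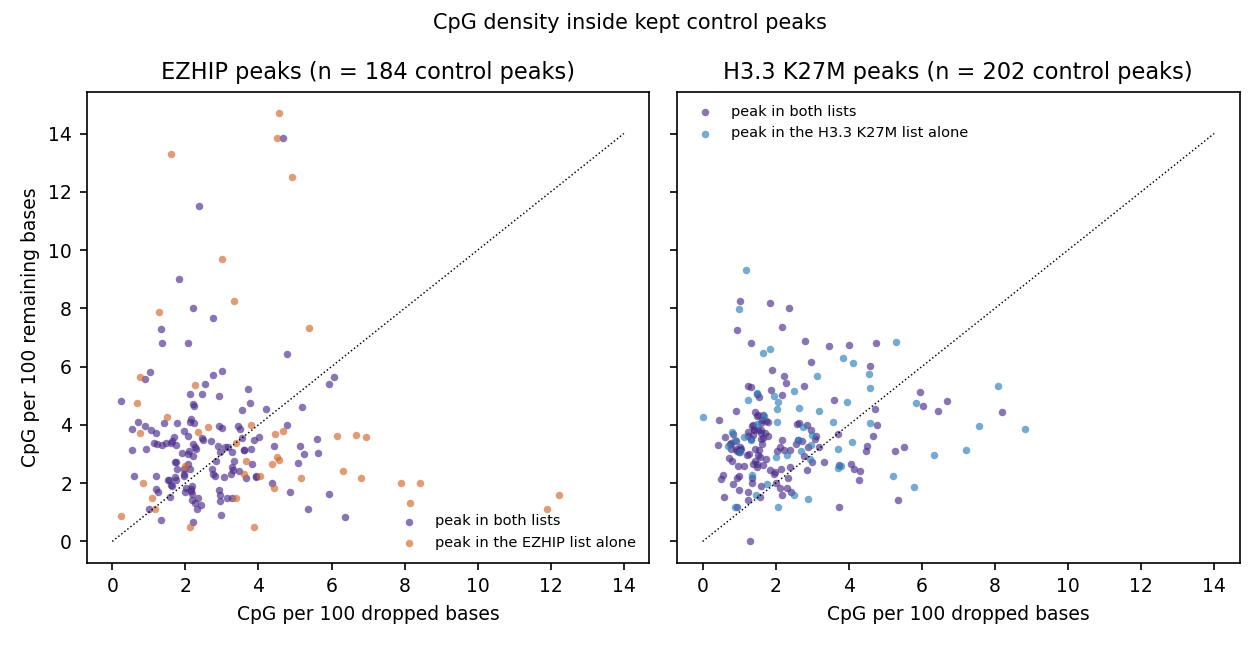
CpG per 100 bases of the remaining bases (vertical axis) against the dropped bases (horizontal axis) of the same kept control peak, for EZHIP peaks (left, 184 control peaks) and H3.3 K27M peaks (right, 202 control peaks), with a dotted line of equal density. On the right 155 points lie above the line, and on the left 103 do, with most orange points of EZHIP-alone peaks below it.

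In peaks overlapped in both lists the bases split into 4 kinds. The median was 3.13 CpG per 100 bases where both lists had a peak (137 peaks with enough bases), 3.25 where only H3.3 K27M did (117), 2.0 where only EZHIP did (43) and 1.64 where neither did (147). In the 106 peaks with both of the first kinds, the H3.3 K27M-only bases were denser in 57 and the shared bases in 49. The richest 200 bases of a kept peak lay among those remaining in either list in 176 of 249 peaks, with a median of 27 CpG against 17 in the dropped bases, although more bases remained than dropped (medians of 5799 and 3800). In EZHIP-alone peaks the richest window was in the remaining bases in 23 of 45, with medians of 16 and 21 CpG and of 1199 remaining and 2000 dropped bases.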

How the data were processed

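RING1B ChIP-Seq was made in MEFs, with 5 samples, 1 per group, grouped by the cell type in the labels. The lists of 3 groups (control, EZHIP, H3.3 K27M) were used. Reads were aligned by the authors to mm9 and a spike-in genome with bowtie (version 1.0.0 in the submitters' processing notes) and broad peaks were called with MOSAiCS-HMM at a stated minimum size of 1000 bases. The narrowest EZHIP and H3.3 K27M peaks nevertheless span 399 bases, and the narrowest control peak 1199. The deposited values are start and end positions, with no count, signal or score, so depth and its effect on the calls are unknown.

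Width is end minus start, and printed positions are 1-based. The tools were pandas 2.3.3 and numpy 2.4.6 (Python 3.11.15) for overlaps, numba 0.67.0 for word counts, scipy 1.17.1 for intervals and matplotlib 3.10.9 for plots. All 1418 peaks fit the chromosome lengths of NCBIM37, the assembly behind mm9, which gave the sequence, with GENCODE vM1 for genes. Of the listed symbols 595 matched directly, 7 as RefSeq synonyms and 4 not at all. Second entries of a listed TF symbol were counted in neither gene group. CpG-island-like windows of 500 bases moved by 100, and repeated words of 32 bases were taken every 50. In a test on 821 simulated peaks, 100% of the overlap calls were right. This checks the overlap arithmetic only and not the peak calls.

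Peaks and gene lists were chosen with earlier results of these data known. Genes were named by rule: up to 6 per list in the widest kept peaks, the 4 widest kept peaks per set outside the HOX clusters, and the 3 highest and 3 lowest cover shares in peaks of both lists of at least 5000 bases. HOX genes beyond this and genes listed by which list kept them were named after their values were seen. No p-value was computed, since each group has 1 library. Alternatives changed the overlap, width, gene start, island and CpG rules, merged peaks, used autosomes only, or left out HOX genes or repeated peaks. Symbols as listed, peaks in place of genes, island-like cover with windows of 500 bases and further uses of the repeat and 1000-base limits were added after the data were seen. A few genes that met the naming rule are not reported here.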

Additional observations from a re-analysis of the deposited data

How the results depend on the processing

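Of 96 values recomputed for 18 results under 16 alternatives, 20 moved beyond the counting interval of the value (for ratios, by over 1.5 times) and 4 turned direction. Those were ratios of median CpG content of kept to other peaks, close to 1 throughout. From 4000 to under 10000 bases the ratio was 1.01, and 0.912 or 0.845 by cover with island-like windows of 200 or 500 bases. At 10000 bases or more it was 0.930, and 1.07 with either window. With overlap of at least 50% of the control peak required, 20.3% of control peaks were kept. With EZHIP and H3.3 K27M peaks of at least 1000 bases, 28.0% were kept, median cover was 50.9% for EZHIP and 65.5% for H3.3 K27M, 19.4% of other gene starts were kept, 80.9% of kept peaks held a gene start and 63.0% of starts lay in H3.3 K27M peaks. With control peaks of at least 2000 bases, 48.0% were kept, 36.5% of other gene starts were kept and 63.0% of the other peaks held a gene start. Counting all annotated genes, 79.5% of kept and 64.3% of other peaks held a start. With a margin of 5000 bases, 78.8% of kept and 78.8% of other peaks held a start, so the difference seen without it was lost, 71.2% of starts lay in EZHIP and 71.9% in H3.3 K27M peaks, and 77.2% of TF starts were kept. Counting peaks in place of genes, 21.9% with another gene start were kept. By the CpG ratio, remaining bases were higher in 78.7% of kept peaks for either list, 68.5% with EZHIP and 82.2% with H3.3 K27M. The causes were not tested. The lists differ in narrowest peak and unknown depth, which cannot be told apart from the conditions with 1 library per group. No paired analysis was possible because each group has 1 library.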
